A study of Ovis aries with 18 samples.

Results

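Extracellular vesicles recovered from the uterine lumen of sheep were compared with the endometrium, the tissue that lines that lumen, by small RNA sequencing. The comparison used all 8 vesicle libraries and all 10 endometrium libraries, which together are the 18 libraries of the series. All the ewes (10) had been ovariectomized and had received 50 mg of progesterone (P4) every day for 14 days, so every vesicle and endometrium group shares the absence of ovaries and the progesterone. In 4 vesicle and 5 endometrium libraries P4 was the only agent. In the other 4 vesicle and 5 endometrium libraries (P4+RU486) the ewes had also received 50 mg of RU486 (mifepristone, an antagonist of the progesterone receptor) daily from day 8 to day 14. The labels give no age for the ewes. Of the ewes, 8 gave a library of each source and 2 gave endometrium only. The endometrium value columns name neither the ewe nor the treatment and are tied to the tissue by the table they stand in, so both treatments were pooled within each source and libraries of the same ewe could not be matched. Libraries are called P01 to P04 (vesicles, P4), R01 to R04 (vesicles, P4+RU486) and S01 to S10 (endometrium).

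MicroRNAs are short RNAs that lower the output of target mRNAs through a seed, the bases near the 5′ end that pair with the target. Cells load some of them into vesicles, membrane-bound particles that are released into a fluid and can be taken up by other cells. The uterine lumen is bounded by luminal epithelium and by the mouths of the glands, while stroma, smooth muscle of vessel walls and blood cells lie beneath it and enter a dissected endometrium with the epithelium. In sheep the luminal fluid feeds the conceptus for weeks before the placenta attaches.

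The rows compared were those listed in both deposited tables: 488 of 495 vesicle rows and of 761 endometrium rows. Of these, 80 carry a sheep miRNA name, 316 carry the identifier of a predicted locus together with a miRNA whose seed they share, and 92 carry a locus identifier with no such miRNA. Sharing a seed does not make 2 miRNAs the same, and a locus row is given below with its identifier and the seed it is listed with. Each library was rescaled to 1000000 reads over the 488 shared rows, so CPM here is reads per 1000000 reads of shared rows. The rescaling cancels any single factor that the separate normalization of each table gave to a library. It makes every level a share, so a row can be lower in CPM because others are higher. Levels are reads per row with no correction for length.

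Vesicle libraries held 97202 to 1062646 reads in listed rows (median 224944) and endometrium libraries 5276764 to 12054760. The sequencing depth itself is not given. One read was worth 0.941 to 10.3 CPM in vesicles and 0.0862 to 0.199 in endometrium. A count of 0 allows up to 3 reads, which is 2.82 to 30.9 CPM in a vesicle library and 0.259 to 0.598 in an endometrium library, for counting error only (no molecular identifiers were used, so several reads can stem from 1 molecule). RNA was extracted with TRIzol from endometrium and with the miRNeasy kit from vesicles. Source, RNA kit, deposited table and depth change together between the 2 groups, so their parts in any difference below cannot be told apart. In these bulk libraries fewer cells of a type and less RNA per cell cannot be told apart either. Among vesicle libraries P01 stood apart: its median Spearman correlation with the other vesicle libraries was 0.914, against 0.934 to 0.957 for the other 7, and it is also the shallowest. Several results in which P01 is the extreme vesicle library are given below with and without it. It is also the extreme for 10_3805, miR-99a, miR-29a and JH923873.1_37347, among others. Without P01 their log2 differences between sources were 2.84, -4.44, -2.59 and 2.93.

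Most miRNAs took a different share of the reads in vesicles than in endometrium. Over the 241 rows with a mean of the 2 source means of at least 10 CPM, limma on log2(CPM + 10) called 215 rows (89.2%) at an adjusted p under 0.05. Of these, 106 (44%) were higher and 109 (45.2%) lower in vesicles. At a difference of at least 4-fold, 34 rows (14.1%) were higher and 48 (19.9%) lower, 82 rows (34%) in all. In 152 rows (63.1%) the lowest library of one source lay above the highest of the other. With the added 10, 31 rows were over 8-fold and 18 over 16-fold lower in vesicles, against 14 and 3 higher. The added 10 shrinks differences of rows with low values, so these counts do not compare plain ratios of CPM. edgeR and DESeq2, without the added 10, each called 57 rows at least 4-fold higher and 62 lower. Because so large a share of rows passed, counts of members called are read below against these percentages, and sizes are given first.

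The split of calls depends on how the libraries are scaled to each other. The median log2 difference over the 241 rows was -0.04 with library totals, -0.74 with TMM factors and -0.60 with median-of-ratios factors. With TMM 76 rows were called higher and 133 lower (26 and 75 at 4-fold), and with median-of-ratios factors 80 and 126 (27 and 69). All 82 rows called at 4-fold were called in the same direction in each of the other settings that tested them. A log2 difference between 0 and about 0.7 can therefore change sign with the scaling, and such rows are named as doing so.

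**Figure D1:**
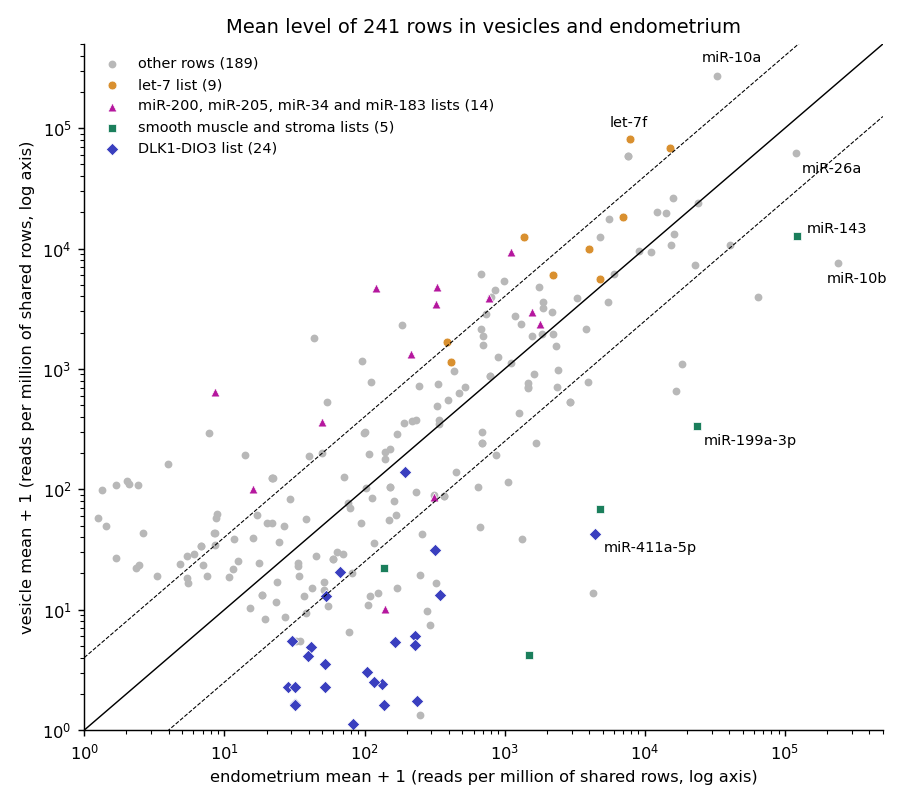
Mean level of the 241 tested rows in endometrium (x axis, 10 libraries) and vesicles (y axis, 8 libraries), each in CPM plus 1 on log axes, with lists marked by colour and shape. The solid line marks equal levels and the dashed lines a 4-fold difference; miR-10a lies far above the upper line, and miR-10b, miR-143, miR-199a-3p and most DLK1-DIO3 rows lie below the lower one.

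Vesicle libraries resembled each other less than endometrium libraries did. The SD of the log2 level over libraries had a median of 0.56 per row in vesicles and 0.22 in endometrium, and was larger in vesicles for 216 of 241 rows. As a description over these 241 rows, which share library and depth, Spearman correlations between libraries were 0.898 to 0.977 within vesicles, 0.984 to 0.995 within endometrium and 0.630 to 0.714 between sources. Of the 20 most abundant rows of each source 13 were the same.

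The most abundant row of each source was a member of the miR-10 family, but not the same one. miR-10a, encoded within the HOXB gene cluster, lay between 169333 and 344823 CPM in vesicles (median 265062) and between 21466 and 46397 in endometrium (median 31594). Every vesicle library lay above every endometrium library, and P01 was the lowest vesicle library. The means were 271051 ± 56357 (SD, n = 8) and 32491 ± 8370 (SD, n = 10), or 3.07 on the log2 scale (SE 0.16, limma adjusted p = 1.08e-13), and 3.17 without P01.

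miR-10b, encoded within the HOXD gene cluster, went the other way, at 1658 to 21309 CPM in vesicles (median 5462) and 216490 to 278218 in endometrium (median 239774). Again the libraries of the sources did not overlap, and the highest vesicle library was P01. The means were 7534 ± 6585 (SD, n = 8) and 237906 ± 18833 (SD, n = 10), 31.6-fold apart, or -5.45 on the log2 scale (SE 0.36, limma adjusted p = 7.57e-12), and -5.74 without P01. miR-10b ranked 1 in endometrium and 23 in vesicles, and miR-10a ranked 6 and 1. Together they took 27.9% ± 5.21 (SD, n = 8) of the reads in vesicles and 27.0% ± 1.37 (SD, n = 10) in endometrium. The mature forms of this pair are nearly identical, so reads could be split between them by the counting, which is not given in the sources used here. Within a library, miR-10a held 7.95 to 208 times the reads of miR-10b in vesicles and 0.0885 to 0.214 times in endometrium.

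The let-7 family, which restrains growth genes such as RAS and HMGA2 in differentiated cells, took 20.4% ± 4.80 (SD, n = 8) of vesicle reads and 4.31% ± 0.808 (SD, n = 10) of endometrium reads. All of its 9 rows were tested, and 8 were called higher in vesicles, 4 of them by at least 4-fold, beside 44% and 14.1% of all rows. The list's median log2 difference was 1.44 (-0.04 over all rows), and 0.67 with TMM. let-7f was the row that differed most, at 30237 to 129035 CPM in vesicles (median 78245) and 6077 to 11253 in endometrium (median 6721). Its vesicle libraries all lay above its endometrium libraries, with P03 the lowest and R04 the highest of the vesicles. On the log2 scale vesicles were higher by 3.30 (SE 0.21, limma adjusted p = 2.94e-12). let-7a had means of 68325 ± 11990 (SD, n = 8) and 15161 ± 2884 (SD, n = 10), a log2 difference of 2.17 (SE 0.12), and let-7b of 1.39 (SE 0.11). A locus row with the let-7f seed, 14_9316, was chosen after its values were seen and differed by 3.06 (SE 0.19). let-7c alone was not called, at 5552 ± 1556 (SD, n = 8) and 4801 ± 1246 (SD, n = 10), with overlapping libraries and a log2 difference of 0.19 (SE 0.17, 95% interval -0.16 to 0.54) that turned to -0.58 with TMM. Members of this family differ by few bases, so the counting could split reads among them.

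The other rows that lead the vesicle libraries differed less, except those with the miR-92a seed. Locus row 10_3805, listed with the seed of miR-92a, a product of the miR-17-92 cluster that promotes proliferation, lay at 43828 to 86905 CPM in vesicles (median 55106) and 6125 to 8845 in endometrium (median 7516). No vesicle library fell into the endometrium range, and the vesicles were higher by 2.93 on the log2 scale (SE 0.12, limma adjusted p = 4.35e-15). Row X_35741 holds near-identical values and may be the same signal. miR-26a, which represses the histone methyltransferase EZH2, stood among the leading rows of both sources at 61929 ± 15894 (SD, n = 8) and 120397 ± 11037 (SD, n = 10), and was lower in vesicles by a log2 difference of -0.998 (SE 0.13). Its near relative miR-26b was at 6124 ± 1190 (SD, n = 8) and 6046 ± 883 (SD, n = 10), a log2 difference of 0.01 (SE 0.12, 95% interval -0.24 to 0.26) under library totals and -0.76 with TMM.

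miR-191, encoded in an intron of DALRD3, averaged 26450 ± 5045 (SD, n = 8) in vesicles and 15849 ± 2040 (SD, n = 10) in endometrium, a log2 difference of 0.73 (SE 0.11) that became -0.05 with TMM. The guide strand miR-30a-5p and 2_16700, with the miR-27a-3p seed, had log2 differences of 0.70 and 0.47 (SE 0.11 and 0.09), which also changed sign with TMM (-0.08 and -0.31). miR-148a, which targets the DNA methyltransferase DNMT1, was not called, at 23763 ± 4714 (SD, n = 8) and 24106 ± 2270 (SD, n = 10), a log2 difference of -0.04 (SE 0.11, 95% interval -0.27 to 0.19). With TMM it was called lower, at -0.81, and with median-of-ratios factors at -0.65. miR-21, chosen after its values were seen and raised in many tumours, differed little, by -0.30 (SE 0.11), with overlapping libraries.

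**Figure D2:**
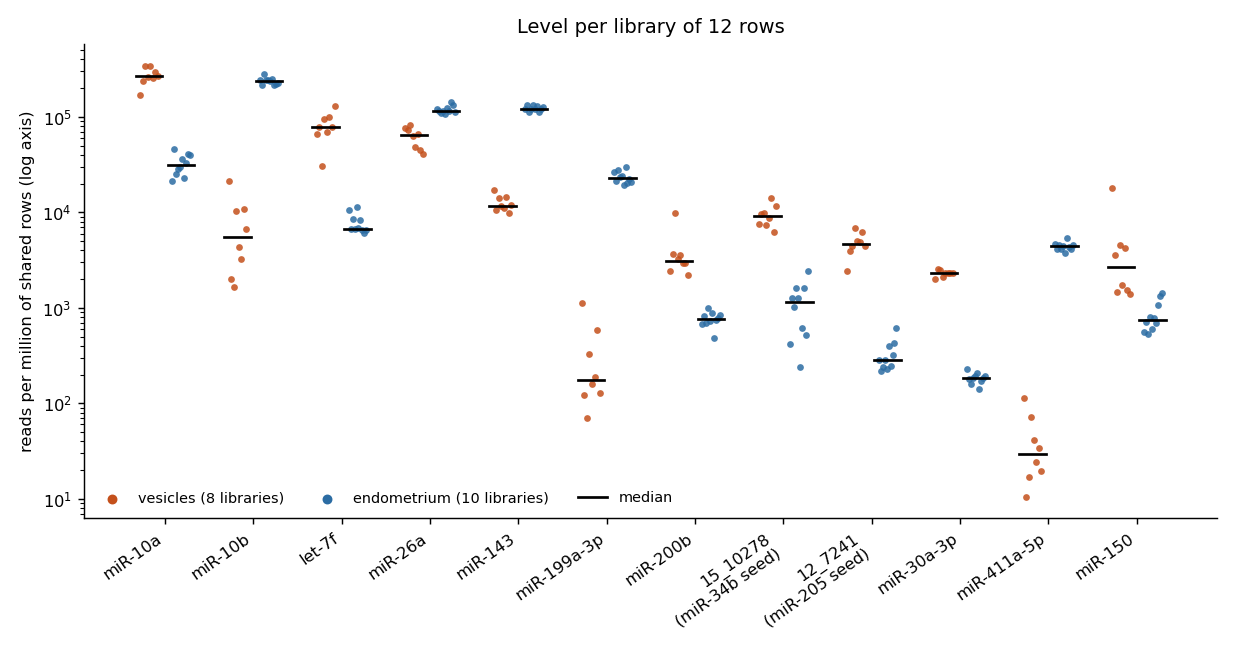
Level of 12 rows in each library, in CPM on a log axis; each point is a library and each bar the median of its source. The sources separate for all rows shown but miR-150, where the vesicle and endometrium points meet.

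Besides miR-10a and miR-148a, the 10 most abundant rows of the endometrium were lower in vesicles, by sizes that varied widely. miR-125b, which the genome places beside let-7 and miR-99 family members, lay at 1522 to 7830 CPM in vesicles (median 3279) and 53037 to 74867 in endometrium (median 66083). The ranges did not meet, and the log2 difference was -4.16 (SE 0.21, limma adjusted p = 7.64e-14), and -4.33 without P01, the highest vesicle library. miR-99a, a repressor of the kinase mTOR, averaged 1097 ± 646 (SD, n = 8) and 18415 ± 2426 (SD, n = 10), a log2 difference of -4.26 (SE 0.25). All 4 P4 vesicle libraries lay above all 4 P4+RU486 vesicle libraries for miR-99a (1272 to 2305 and 494 to 676), and all 8 lay below the lowest endometrium library (15190). Row 15_10953, with the miR-99a-5p seed, was lower by -4.72 (SE 0.19). miR-181a, which tunes T cell receptor signalling, differed by -1.92 (SE 0.14), and miR-22-3p by -1.65 (SE 0.11). A further row with the miR-181a seed, 3_25899, was not called, with a log2 difference of 0.06 (SE 0.12, 95% interval -0.19 to 0.32) that turned to -0.70 with TMM.

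Lists known from epithelial cells did not all go the same way. Both tested rows of the list of miR-192, miR-194 and miR-215, known from gut and kidney epithelium, were called lower in vesicles. They were 21_20031, with the miR-215 seed, at a log2 difference of -1.31 (SE 0.12), and miR-194, at -0.78 (SE 0.15). Over all rows 45.2% were called lower. The miR-200 family, which represses ZEB1 and ZEB2 and so keeps cells epithelial, took 1.40% ± 0.521 (SD, n = 8) of vesicle reads and 0.465% ± 0.0853 (SD, n = 10) of endometrium reads. All 5 of its rows were called higher, 3 of them by at least 4-fold, beside 44% and 14.1% of all rows. With TMM 3 of the 5 were called higher and 1 lower. miR-200b lay at 2214 to 9926 CPM in vesicles (median 3114) and 487 to 1000 in endometrium (median 761). The vesicle libraries all lay above the endometrium libraries, with P03 far above the rest, and the vesicles were higher by 2.18 on the log2 scale (SE 0.22, limma adjusted p = 6.53e-09). For miR-205, an epithelial repressor of the same ZEB genes, the list has 1 row, 12_7241, with that seed. It lay at 2418 to 6773 CPM in vesicles (median 4681) and 217 to 610 in endometrium (median 286), without overlap, with 3.84 on the log2 scale (SE 0.21, limma adjusted p = 2.83e-13), and 3.98 without P01. P01 was the lowest vesicle library for 12_7241 and for the miR-200 share.

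miR-34b and miR-34c are known from multiciliated epithelial cells. Among rows with these seeds 3 of 4 were called higher by at least 4-fold, beside 14.1% of all rows. Row 15_10278, with the miR-34b seed, lay at 6237 to 14013 CPM in vesicles (median 9131) and 241 to 2438 in endometrium (median 1145). The ranges were apart, but the endometrium libraries themselves spread over a wide range, with S06 the lowest and S10 the highest. On the log2 scale the sources were 3.32 apart (SE 0.35, limma adjusted p = 1.38e-08). Row 15_10275, with the miR-34c-3p seed, reached 4699 ± 2680 (SD, n = 8) against 119.8 ± 82.7 (SD, n = 10). Its log2 difference was 5.27 (SE 0.35), and 5.07 without P01, the highest vesicle library. The 5.27 was the largest of all rows tested in that direction, an order that depends on the added 10. Row 16_11384, again with the miR-34b seed, followed at 648 ± 325 (SD, n = 8) and 7.50 ± 9.88 (SD, n = 10), a log2 difference of 5.20 (SE 0.32). The remaining row, 12_6472, was lower in vesicles, at 9.14 ± 7.61 (SD, n = 8) and 138.7 ± 28.1 (SD, n = 10), so the list did not move as one. Row 16_11384 could pass the filter through its vesicle level alone, and 12_6472 through its endometrium level alone. The count of rows called therefore supports nothing about the list.

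The miR-183 cluster, active in sensory and secretory epithelia, had 4 tested rows of 6, all matched by seed. Of these, 3 were called higher and 1 lower, beside 44% and 45.2% of all rows. Row JH923873.1_37347, with the miR-183 seed, lay at 165 to 491 CPM in vesicles and 20.1 to 96.2 in endometrium, and differed by 2.78 (SE 0.28). Its twin JH923873.1_37351 holds the same values. The row lower in vesicles, 5_29334, and 1 of the higher rows, X_36488, both carry the miR-96 seed, at log2 differences of -1.89 and 1.89 (SE 0.23 and 0.31).

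The smooth muscle and stroma lists took smaller shares of the reads in vesicles. miR-143, which drives the contractile state of smooth muscle, lay at 9849 to 17153 CPM in vesicles (median 11729) and 111443 to 132066 in endometrium (median 120926). No library crossed over, P01 was the highest vesicle library, and the log2 difference was -3.30 (SE 0.10, limma adjusted p = 8.46e-18), and -3.37 without P01. Row 5_29566, with the seed of miR-145, the cluster partner of miR-143, was lower still, at 15.2 to 155 CPM (median 53.8) against 3744 to 6408 (median 4857), a log2 difference of -6.21 (SE 0.28). The ratio of miR-143 to 5_29566 was 90.2 to 953 in vesicles and 18.9 to 30.9 in endometrium. All 3 tested smooth muscle rows were called lower by at least 4-fold, with TMM as well, beside 19.9% of all rows. Of the 7 rows on the list 4 stood in the endometrium table only. The list took 12.8% ± 0.743 (SD, n = 10) of endometrium reads and 1.27% ± 0.247 (SD, n = 8) of vesicle reads. Most of both shares was miR-143.

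miR-199a-3p, expressed with miR-214 from one transcript in mesenchymal cells, lay at 69.6 to 1111 CPM in vesicles (median 174) and 19267 to 30144 in endometrium (median 22799). The vesicle libraries all lay below, and P01 was the highest of them. The means were 337 ± 354 (SD, n = 8) and 23556 ± 3603 (SD, n = 10), 69.9-fold apart, or -6.60 on the log2 scale (SE 0.36, limma adjusted p = 3.4e-13), and -6.92 without P01. Row 12_6942, with the miR-214 seed, had 8 reads over the 8 vesicle libraries, in P03, R02 and R03 only, against 113266 reads in endometrium. Over pooled reads it was 495 times lower in vesicles (95% counting interval 251 to 1148). Within libraries, the miR-200 list held 8.39 (P01) to 362 times the reads of the stroma list in vesicles and 0.110 to 0.263 times in endometrium.

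**Figure D3:**
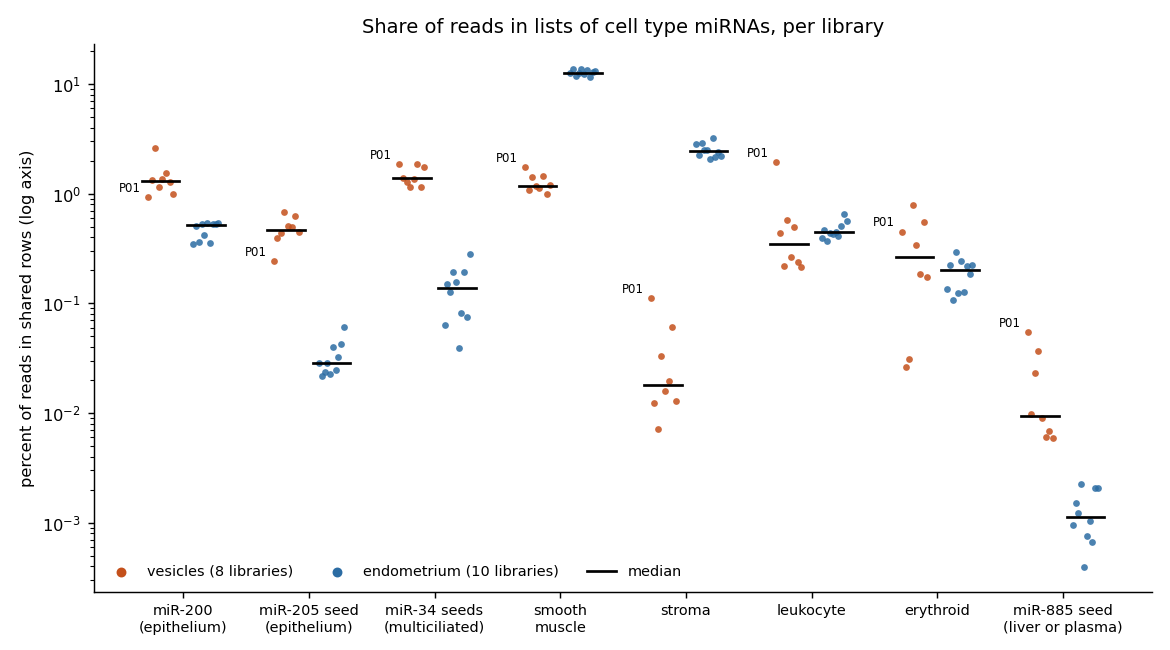
Share of reads in lists of miRNAs known from particular cell types, in percent of reads in shared rows on a log axis; each point is a library, each bar the median of its source, and P01 is marked. The epithelial and multiciliated shares lie higher in vesicles, the smooth muscle and stroma shares lie higher in endometrium, and the leukocyte and erythroid shares overlap.

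The imprinted DLK1-DIO3 region encodes a large set of maternally expressed miRNAs that mesenchymal and embryonic cells use, and in sheep it is the callipyge locus. Of the 102 rows on its list, 32 stood in both tables and 70 in the endometrium table only. All 24 that passed the filter were called lower in vesicles, 15 by at least 4-fold, beside 45.2% and 19.9% of all rows. They could pass through their endometrium level alone, so this count describes the tested rows and supports nothing about the list. The median log2 difference was -2.81, and with TMM all 24 were called lower too. miR-411a-5p, the most abundant, lay at 10.5 to 113 CPM in vesicles (median 29.2) and 3715 to 5413 in endometrium (median 4401). P01 was the highest vesicle library and still lay far below the endometrium, and the log2 difference was -6.66 (SE 0.26, limma adjusted p = 1.31e-15), and -6.87 without P01.

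Most of the other DLK1-DIO3 rows had almost no reads in vesicles: 18 of the 24 had fewer than 6 over all 8 libraries. For miR-410-3p, 3 vesicle reads against 18368 endometrium reads gave a level 214 times lower (95% counting interval 73.3 to 1039). miR-127, chosen after its values were seen and known as an antisense regulator of the imprinted gene RTL1, had 17 reads and was 54.2 times lower (33.8 to 93.1). The summed share of the list over each table's own rows was 0.0302% ± 0.0252 (SD, n = 8) in vesicles and 0.766% ± 0.0835 (SD, n = 10) in endometrium. In vesicles P01 and P04 held the most, and both lay below every endometrium library.

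Rows known from blood cells did not share a direction. miR-150, a miRNA of mature lymphocytes that represses MYB, lay at 1384 to 17883 CPM in vesicles (median 2652) and 535 to 1416 in endometrium (median 749.7). P01 held the highest value by far and the lowest vesicle libraries met the highest endometrium libraries, so the sources overlapped. The log2 difference was 1.89 (SE 0.39, limma adjusted p = 0.00013) and 1.52 without P01. Row 11_5329, with the seed of miR-142b, from a locus active in all blood lineages, went the other way, at 0 to 81.8 CPM (median 36.9) against 759 to 1724 (median 1338), without overlap. Its log2 difference was -5.06 (SE 0.34, limma adjusted p = 9.68e-12). Row 18_13295, with the seed of the leukocyte miRNA miR-342, was lower by -1.79 (SE 0.16). Row 1_2861, with the seed of miR-155, which marks activated immune cells, was not called (0.31, SE 0.17, 95% interval -0.05 to 0.68, and -0.41 with TMM).

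miR-486 is abundant in red cells, and the row with its seed, 26_23579, ranged from 262 to 7910 CPM in vesicles and from 1079 to 2923 in endometrium. Its vesicle libraries lay on both sides of the tissue, P02 and P03 below and P04 highest, and the log2 difference of 0.10 (SE 0.53, 95% interval -1.01 to 1.22) had no settled sign. For miR-885, a liver miRNA that circulates in plasma, the row with its seed, 19_14926, was higher at 59.3 to 545 CPM against 3.97 to 22.3, a log2 difference of 2.73 (SE 0.36), and 2.45 without P01. P01 held the largest vesicle share of this row and of the leukocyte and stroma lists. Summed leukocyte shares were 0.216% to 1.94% in vesicles and 0.367% to 0.648% in endometrium, with 5 of the 6 listed rows in both tables and 4 tested. The part of blood or plasma in the vesicle libraries was not tested. No row matched miR-126 of endothelium or miR-451 of red cells.

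Other families fell on one side or were divided, beside 44% of all rows called higher and 45.2% lower. All 4 tested miR-29 rows, known repressors of collagen genes, were called lower in vesicles. By at least 4-fold 3 were lower, beside 19.9% of all rows. Of these 3, 12_6717 and 12_6721 hold identical values and may be 1 signal. miR-29b, at 8.18 to 36.5 CPM in vesicles and 56.6 to 112 in endometrium, could pass the filter through its endometrium level alone. The count of miR-29 rows called therefore supports nothing about the family. miR-29a averaged 778 ± 386 (SD, n = 8) and 3918 ± 729 (SD, n = 10), a log2 difference of -2.42 (SE 0.20). Of 6 rows that are miR-16b, which restrains the cell cycle, or share its seed, 5 were called lower and 0 higher. Some of these could pass the filter through their endometrium level alone, so the count supports nothing about the family. Row 11_5611 had the largest difference of any row tested with the added 10, at -7.75 on the log2 scale (SE 0.24, limma adjusted p = 2.62e-17). It lay at 0 to 34.1 CPM in vesicles (median 9.61) against 3593 to 4824 in endometrium (median 4373). With 32 vesicle reads, it was 358 times lower over pooled reads (95% counting interval 254 to 524), as fitted values this low depend on the added 10. Row 11_5609 of the same seed had 2 vesicle reads and was 333 times lower over pooled reads (95% counting interval 92.1 to 2748). miR-16b itself was not called, at 1879 ± 526 (SD, n = 8) and 1576 ± 181 (SD, n = 10), a log2 difference of 0.21 (SE 0.15, 95% interval -0.09 to 0.51) that turned to -0.56 with TMM.

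In the miR-148 and miR-152 family, whose members share DNMT1 as a target, miR-148a, level under library totals only, stood beside miR-152, which was 15.7 ± 5.74 (SD, n = 8) in vesicles and 322 ± 41.2 (SD, n = 10) in endometrium (log2 difference -3.72, SE 0.14). All 3 tested rows of this family were called lower with TMM, which called 133 of all 241 rows lower. miR-152 could pass the filter through its endometrium level alone, so this count supports nothing about the family. Library totals, used for the counts that follow unless TMM is named, called 44% of all rows higher and 45.2% lower. Both rows with the seed of miR-221, a repressor of the receptor KIT, were called higher, and X_36142 kept its sign with TMM (1.86, SE 0.17, and 1.09). miR-25 was higher by 1.35 (SE 0.12), with 3 of 4 tested miR-25 and miR-92 rows higher (10_3805 and its twin among them) and 1 lower. Of 6 tested rows of the miR-17-92 clusters 1 was higher, 24_21892 with the miR-20a seed (1.61, SE 0.14), and 3 were lower, miR-19b by -2.59 (SE 0.17). The miR-23, miR-24 and miR-27 rows had 1 call higher and 4 lower, and with TMM 0 higher and 6 lower, with 2_16698 and 5_28971 of the miR-24-3p seed holding the same values. Both miR-103 and miR-107, which sit in introns of pantothenate kinase genes, were called higher, by 0.37 and 1.08 (SE 0.16 and 0.19), but miR-103 turned to -0.40 with TMM.

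Within the miR-30 family, of 7 rows 4 were called higher and 1 lower, beside 44% and 45.2% of all rows. With TMM the family's counts were 3 and 3. The strand usually discarded from the miR-30a precursor, miR-30a-3p, lay at 2027 to 2580 CPM in vesicles (median 2332) and 143 to 227 in endometrium (median 184.6). The ranges did not overlap, and the vesicle libraries stood close together. On the log2 scale vesicles were higher by 3.59 (SE 0.11, limma adjusted p = 9.01e-18), against 0.70 (SE 0.11) for miR-30a-5p from the same precursor. The ratio of the 5p to the 3p arm was 6.57 to 12.02 in vesicles (median 8.56) and 49.8 to 78.7 in endometrium (median 69.2). Such ratios within a library do not depend on the scaling. They were chosen after their values were seen and are a description.

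**Figure D4:**
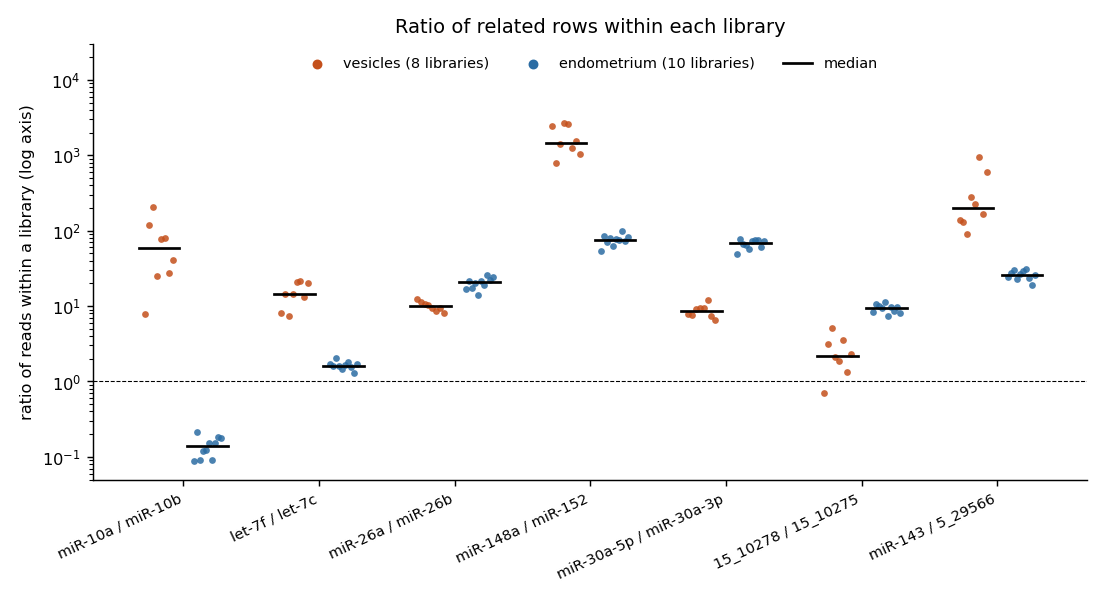
Ratio of reads between related rows within each library, on a log axis; each point is a library, each bar the median of its source, and the dashed line marks a ratio of 1. Vesicle and endometrium points do not overlap in any of the 7 ratios.

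Among the rows with the largest increase in vesicles were also locus rows outside any family listed. Row 1_3033, with the miR-6529a seed, lay at 189 to 3702 CPM in vesicles (median 1639.7) and 18.0 to 56.9 in endometrium (median 46.4). The ranges were apart, with a log2 difference of 4.78 (SE 0.39), though the vesicle libraries spread widely and P03 was the lowest. Row 26_23352, listed with no seed miRNA, reached 291 ± 278 (SD, n = 8) against 6.74 ± 1.30 (SD, n = 10), a log2 difference of 3.64 (SE 0.38), and 3.34 without P01, the highest vesicle library. Row 20_18845, with the seed of miR-877, which is spliced from an intron of ABCF1, differed by 3.37 (SE 0.24). Row 5_29575, with the seed of miR-378, from an intron of the metabolic coactivator gene PPARGC1B, averaged 6149.9 ± 1073 (SD, n = 8) and 679 ± 147 (SD, n = 10), a log2 difference of 3.17 (SE 0.14).

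**Figure D5:**
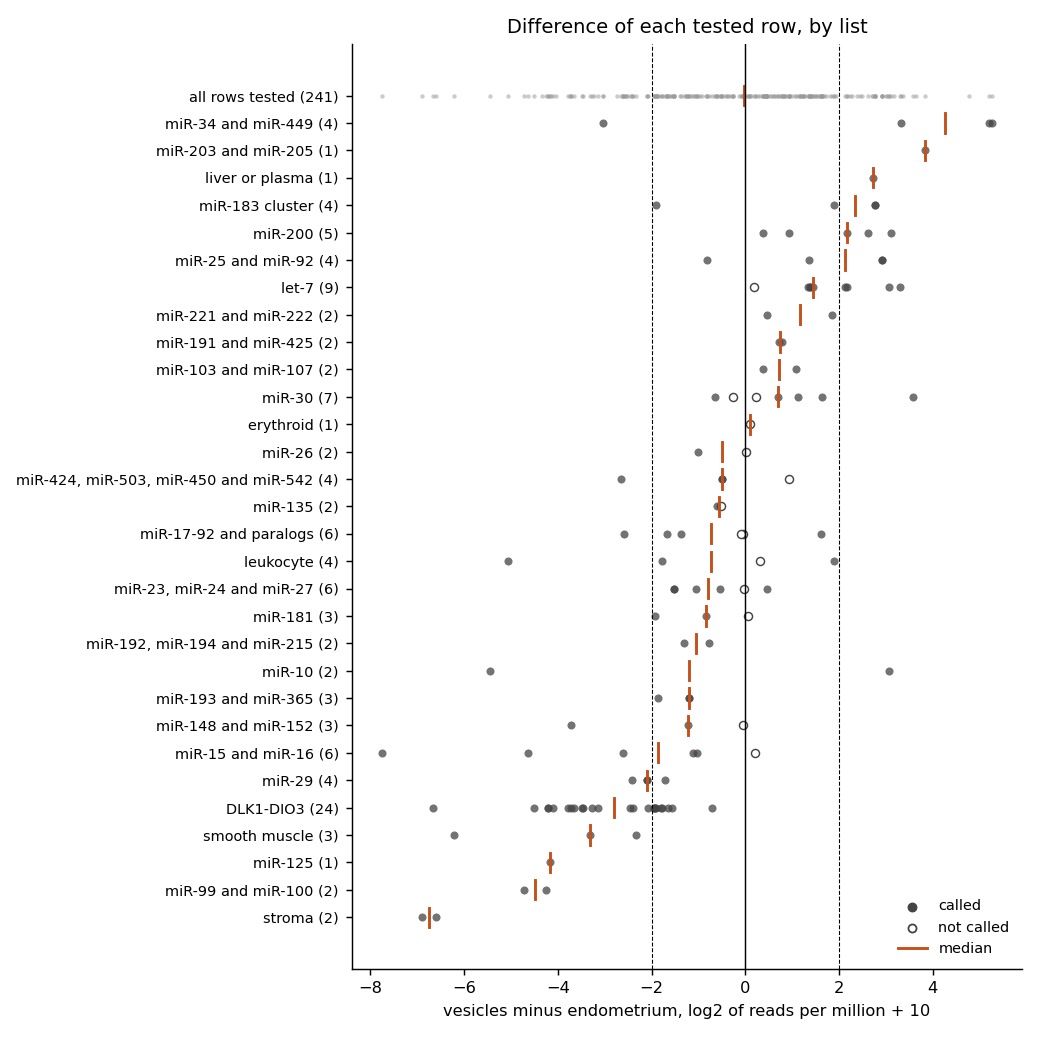
Difference of each tested row (vesicles minus endometrium, log2 of CPM + 10) by list, with filled points called by limma, open points not called, and bars for the median of the list; the number of tested rows is in brackets. Dashed lines mark 4-fold; the stroma, miR-99/100, miR-125 and smooth muscle lists lie left of the lower one, while the median of all rows is near 0.

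With every shared row counted, no measure of how evenly the reads were spread over rows was called different between sources. The 10 most abundant rows took 64.6% to 72.1% of the reads in vesicles and 69.8% to 72.7% in endometrium. Means were 69.3% ± 2.28 (SD, n = 8) and 70.8% ± 0.854 (SD, n = 10), with a 2-sided exact permutation p of 0.0528 (0.158 adjusted over 3 such measures). In vesicles these rows count both 10_3805 and X_35741, which hold near-identical values. With identical rows merged the share differed by -2.25 points (exact permutation p = 0.00704). The effective number of rows, the exponential of the Shannon entropy, was 24.3 ± 3.28 (SD, n = 8) and 23.4 ± 1.12 (SD, n = 10), an exact permutation p of 0.488. Its difference changed sign without P01, which had the highest value of all libraries (30.8). At a common depth of 97187 reads, 252 ± 13.0 (SD, n = 8) rows of a vesicle library and 258 ± 3.86 (SD, n = 10) rows of an endometrium library were expected to have a read (exact permutation p = 0.203, adjusted 0.305). Without P01, which had the most rows, the difference was -9.81 rows, with an exact permutation p of 0.00123.

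Rows listed for one source only were few in reads. The endometrium table had 273 such rows, holding 3.20% to 4.87% of its reads, nearly all in a single row. That row, miR-181a-1, differed from miR-181a by at most 13 reads in any endometrium library, where miR-181a had at least 165210, and the vesicle table lists miR-181a alone. Without it these rows held 0.0612% to 0.0990% of endometrium reads. Of the 72 with a sheep name 68 were DLK1-DIO3 miRNAs, among them miR-409-5p at 162 ± 24.9 (SD, n = 10) and miR-136 at 143 ± 27.3 (SD, n = 10) CPM of listed reads. Of 16 rows with a mean of at least 10 CPM, 14 were on the DLK1-DIO3 list. The vesicle table had 7 rows of its own, with 153 reads in all. The highest by mean CPM was JH921839.1_36755, with the miR-2392 seed, with 37 reads in 6 of 8 libraries. Each table lists rows with as few as 1 read over its libraries, and a row that a table does not list is not shown to be absent from that source.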

How the data were processed

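Per the labels' protocols, TruSeq libraries of small RNA came from vesicles isolated by filtering a 10 ml uterine flush through 0.22 µm, ultrafiltration and size exclusion, and from dissected endometrium. Named in the submitters' processing notes are edgeR, without a version, cutadapt 1.11 and the build Oar_v3.1. For the aligner and the rule that lists a row, the entry is "not given in the sources used here". The deposited values are a normalized signal, which the values themselves, with the naming of edgeR, mark as CPM of a scaled library size. Each table was normalized separately. Dividing by the value of 1 read gave whole numbers to within 0.1 read for 100% of entries in each of 18 columns, and these reads were analysed.

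Reads were rescaled to 1000000 over the shared rows. limma (3.58.1, trend, R 4.3.3) was run on log2(value + 10), which understates differences of low rows, for rows with a mean of the 2 source means of at least 10, with Benjamini-Hochberg adjustment over all rows tested and a threshold of 0.05. The method was tested on simulated data. These had the same spread setting in both sources and no shared ewes, so they do not cover the unequal spread and shared ewes of the real libraries. edgeR 4.0.16 and DESeq2 1.42.0 on the recovered reads were alternatives. Measures per library were compared by exact permutation. Libraries come from separate ewes within a source, and P01, P04 and R04 are the shallowest. The deposited fold and p-value columns were not used. Named rows are the 10 most abundant of each source, the 10 most changed in each direction (no overlap, mean of at least 100), the leading called and uncalled row of each list and the leading rows of one table only. Any other row named, among them let-7b, 12_6472, 5_29334, X_36488, 18_13295, miR-152, miR-25, miR-19b and miR-107, was chosen after its values were seen. Lists match the sheep name or the seed name. Rows, members and lists were chosen with earlier results of these data known. Gene locations in the text are background. Mature sequences were not used here.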

Additional observations from a re-analysis of the deposited data

Results flagged for a closer look

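Of 179 groups of values examined (each named row in each group of 4 to 10 libraries) 10 (5.59%) held 1 library whose gap to the nearest of the others was large for the range of the group. Chance gives about 1 in 20. In endometrium, S01 was low for miR-148a at 19207 CPM (other libraries 22452 to 26750), S09 was high for 3_26580 of the miR-148a seed at 959 (584 to 753), and S02 was low for X_35732 of the miR-450b seed at 7.11 (81.7 to 474). In vesicles of the P4 group, P03, the deepest vesicle library, was high for miR-26b at 7781 (6128 to 6380). In that group it alone had reads of 12_6942 and of miR-410-3p, 2 of each (1.88 CPM). In vesicles of the P4+RU486 group, R02 was low for 10_3805 at 44044 (53933 to 56084) and high for miR-26b at 7746 (4693 to 5040). R04 was low for 15_10953 at 356 (676 to 735), and R01 alone had 1 read of miR-410-3p, at 4.09 CPM. Where the other libraries of a group hold 0 reads, the gap equals the range at any level, so such flags say little. X_35732 differed between sources by 0.94 on the log2 scale, and by 0.56 without S02, neither of them called. Without P01 it differed by 1.13 and was called.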

How the results depend on the processing

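No paired analysis was possible because the value columns do not name the ewes (the replicate block was not run). Of 57 named rows 40 kept call and direction in every setting. With the minimum mean raised to 100 CPM, the counts were 125 called, 64 higher and 61 lower. The counts at 4-fold depend on the added 10 and the tool: edgeR and DESeq2 each gave 57 higher and 62 lower (119 in all) and an added 1 gave 49 and 67 (116). TMM gave 75 at least 4-fold lower. Leaving out 1 library gave 209 to 214 called, 33 to 36 at least 4-fold higher and 48 to 53 lower.

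Log2 differences changed sign, with causes not tested, as follows. With TMM they were -0.046 for miR-191, -0.077 for miR-30a-5p and the miR-30 list, and -0.040 for the list of miR-103 and miR-107. With TMM and median-of-ratios factors they were -0.31 and -0.15 for 2_16700, -0.40 and -0.24 for miR-103 and -0.41 and -0.26 for 1_2861. With TMM, median-of-ratios factors and totals without the most abundant rows they were -0.58, -0.42 and -0.14 for let-7c, -0.76, -0.60 and -0.32 for miR-26b, -0.53, -0.37 and -0.091 for miR-30c, -0.70, -0.55 and -0.27 for 3_25899, -0.56, -0.40 and -0.12 for miR-16b, and -0.66, -0.50 and -0.23 for 26_23579, the erythroid list. With P4 vesicles only they were 0.053 for 3_25056, 0.063 for the miR-135 list, 0.14 for miR-23a and -0.43 for 26_23579. With P4+RU486 vesicles only they were -0.12 for miR-26b, 0.14 for miR-17-5p and -0.069 for miR-16b. Without the 3 shallowest vesicle libraries they were -0.037 for let-7c, 0.11 for miR-17-5p, 0.055 for miR-23a and -0.52 for 26_23579. Merging identical rows gave 0.030 for miR-148a and 0.035 for miR-23a. edgeR and DESeq2 gave 0.053 and 0.078 for miR-17-5p and 0.025 and 0.029 for miR-23a. Leaving out 1 library gave -0.19 to 0.51 for 26_23579 and its list, -0.10 to 0.044 for miR-148a, -0.19 to 0.024 for miR-17-5p, -0.18 to 0.021 for miR-23a and -0.044 to 0.060 for miR-26b.

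The share of the 10 most abundant rows differed by -2.25 points with identical rows merged and -2.57 with P4 vesicles only, where exact permutation gave p of 0.00704 and 0.0030, and by -1.90 to -0.83 with 1 library left out (p below the threshold without R01, R04 or S05). The effective number of rows differed by -0.36 with P4+RU486 vesicles only, -0.105 without the 3 shallowest, -0.27 over all rows of each table, and -0.070 (without P01) to 1.34 with 1 library left out. Rows expected at a common depth differed by -7.22 with P4+RU486 vesicles only and -10.3 without the 3 shallowest, where exact permutation gave p of 0.0150 and 0.0030, and by -9.81 to -3.99 with 1 library left out.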

Other observations

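Calls were also counted by the kind of name a row carries, with no test between the kinds. Over all rows 44% were called higher and 45.2% lower (14.1% and 19.9% at 4-fold). Of 72 tested rows with a sheep name 19 were called higher and 45 lower in vesicles (6 and 26 at 4-fold), with a median log2 difference of -1.61. Without the 23 DLK1-DIO3 rows among them, 19 of 49 were higher and 22 lower (6 and 11 at 4-fold), with a median of -0.04, and -0.80 with TMM. Of 149 locus rows with a seed miRNA 74 were higher and 60 lower (22 and 20 at 4-fold), with a median of 0.39 that turned to -0.33 with TMM. Of 20 locus rows with no seed miRNA 13 were higher and 4 lower, with a median of 0.65, and 0.20 with TMM. Sheep-named rows held 73.1% of vesicle reads and 85.4% of endometrium reads, and locus rows with a seed miRNA 26.7% and 14.2%.

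The 6 locus rows with no seed miRNA that were called at least 4-fold higher had vesicle means of 56.7 to 291 CPM, with a read in every vesicle library, and endometrium means of 0.250 to 6.74. They passed the filter through the vesicles alone, so that they were higher follows in part from the filter. Whether they are miRNAs cannot be read from these tables. Several abundant rows outside the lists were chosen after their values were seen. Row 2_17077, with the seed of miR-31, known from epithelial cells, averaged 5340.0 ± 1555 (SD, n = 8) in vesicles and 991 ± 203 (SD, n = 10) in endometrium (log2 difference 2.39, SE 0.16). Row 1_2168, with the seed of miR-101b-3p, from the family that represses EZH2, was lower at 528 ± 261 (SD, n = 8) and 2917 ± 274 (SD, n = 10) (-2.55, SE 0.18). Row 3_26587, with the seed of miR-196a, a HOX cluster miRNA like miR-10a and miR-10b, was lower at a log2 difference of -3.22.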
